A study of Mus musculus with 6 samples.

Results

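The Pax and myogenic regulatory factors are the transcription factors that hold and then release the muscle stem cell state. They were taken here as 8 genes, Pax7, Pax3, Myf5, Myod1, Myog, Myf6, Msc and Lbx1, which 9 of the 41174 non-control probes of the array carry by name. Pax3 has 2 probes and each other gene has 1. RNA came from 6 samples of proliferating satellite cells, the stem cells that lie along muscle fibres, isolated from skeletal muscle of female mice. In 3 samples the cells came from mice given as Magic-F1+/+, which carry Magic-F1, an engineered form of hepatocyte growth factor that acts on the receptor MET, and in 3 from control mice whose sample titles carry the term MLC3F. The meaning of that term, the promoter that drives the transgene, the age of the mice and the number of mice behind each sample are not given in the sources used here. Samples are called biological triplicates in the series, but the source name of every sample ends in rep1, and the replicate numbers used here come from the titles. Accordingly, the p-values rest on how far these 3 samples of a group lie apart, which could be technical spread alone.

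Pax7 marks satellite cells and Pax3 its paralogue in embryonic muscle precursors; both are paired-box and homeobox factors that act upstream of the myogenic regulatory factors. Myf5 and Myod1 commit a cell to muscle, Myog drives it out of the cell cycle into differentiation, and Myf6 acts late, in differentiating cells and fibres. These 4 factors are basic helix-loop-helix (bHLH) proteins that bind E-box DNA together with E proteins, while Id proteins and repressors such as musculin, the product of Msc, hold them back. Lbx1 is a homeobox factor of the migrating muscle precursors of the limb.

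The 4 genes of the set that were well above background on all 6 arrays, Myog, Myod1, Myf6 and Lbx1, were lower in Magic-F1 cells. Myog was 25.0-fold lower and Myod1 18.5-fold lower. Pax7 and Msc were lower too, but they entered the tests only through the control samples, where they were above background, so that a fall was the direction this selection allowed. The 2 others, Myf5 and Pax3, were not well above background on any array. Among all 21190 tested probes 46.4% were lower and 41.3% were higher at an adjusted p under 0.05, or 87.7% in either direction. The groups did not overlap for 89.1%, and for 47.1% they did so with Magic-F1 lower. A change, or a separation of the groups, was thus by itself the usual case in these data. Larger falls were less common, with 11.4% of tested probes at least 4-fold lower.

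Probe sequences are shown because probes of low G and C content seldom passed the detection rule on these arrays. Each probe is 60 bases long; its first 30 are given 5′ to 3′ as in the files, with G and C in capitals.
Myog: atCttGGGaaCCttCCaGtGCtttGtGtat
Myod1: ttttGttGttGttGttGtaGtCCttCaGtt
Myf5: ttGtatatGCCttaaaataaCttGataaat
Pax7: CCttGaCCCCaaCaGGttttCCCaaCtGtC
Msc: CtCtGaCaGCaaaGaCGtttCtGCaGCCaa
Over its full length the Myf5 probe holds 15% G and C, and no probe on the array holds less. Among the 44 probes with that content none passed the detection rule, against 51.5% of all probes. The Myog probe holds 35%, the Myod1, Myf6 and Lbx1 probes 38.3% each, the Pax7 probe 45% and the Msc probe 51.7%. The Pax3 probes, at 36.7% and 35%, lie where 34.9% of probes were tested. The part of base composition in the Myf5 reading was not tested, and its level is given as not known from this probe.

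**Figure D1:**
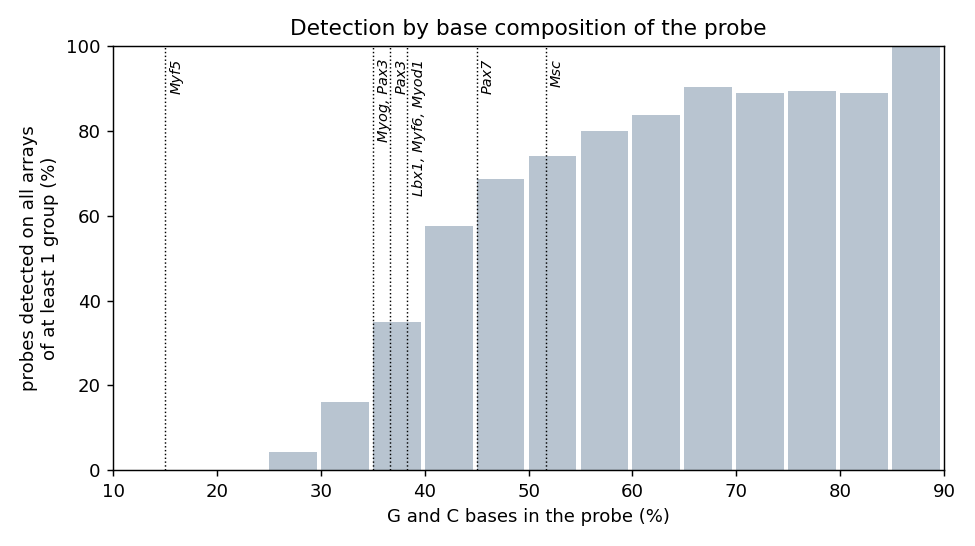
Share of probes that passed the detection rule (y axis, percent) against the G and C content of the probe (x axis, percent, bins of 5), with the 9 probes of the set marked at their content. Tested probes rise from 0% in the bin from 15% to 73.9% in the bin from 50%, and the Myf5 probe sits at the lowest content on the array.

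Signal is given as the scanner's background-subtracted processed signal and, for comparison between arrays, as its log2 after subtraction of the 75th percentile of each array, here called the normalized log2 level. These percentiles were 341 to 356 on the Magic-F1 arrays and 275 to 292 on the control arrays, and between 49.2% and 52.0% of spots were well above background. With 3 arrays a group, precision is limited by their number. The levels of different probes are not comparable with each other. In RNA from a cell population, fewer cells of a type and less RNA per cell cannot be told apart.

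Myog encodes myogenin, the factor that takes myoblasts into differentiation. Its probe lies on chromosome 1 at 136188874 to 136188933 (mm9, plus strand). The mean processed signal in the Magic-F1 samples was 3397, 3290 and 3211 in replicates 1, 2 and 3. In the control samples it was 67874, 68447 and 63293. All 3 Magic-F1 samples lay far below all 3 control samples, and the samples within each group were close together. On the normalized log2 scale Myog was at 3.24 ± 0.02 in the Magic-F1 samples and 7.88 ± 0.05 in the controls (SD, n = 3 each), a difference of -4.64 with a standard error of 0.05 (limma, adjusted p = 2.23e-08). Only 1.23% of tested probes fell further. The probe is spotted 10 times on each array, which shows the spread between spots that read the same sample. These spots are not replicates of a group. The 30 Magic-F1 spots ran from 1746 to 3506 with a median of 3358, and the 30 control spots from 61548 to 70562 with a median of 67348. A single spot of Magic-F1 replicate 3, at 1746, lay well under the median of 3377 on its array, and no Magic-F1 spot came near a control spot.

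Myod1 encodes MyoD, which commits cells to muscle and is a mark of the activated, dividing satellite cell. Its probe lies on chromosome 7 at 53633956 to 53634015 (mm9, plus strand). The processed signal was 444, 450 and 441 in Magic-F1 replicates 1, 2 and 3, and 7080, 6885 and 5969 in the control replicates. Control replicate 3 was the lowest of its group and still far above every Magic-F1 sample. The normalized log2 level was 0.35 ± 0.03 in the Magic-F1 samples and 4.56 ± 0.11 in the controls (SD, n = 3 each), a difference of -4.21 with a standard error of 0.07 (limma, adjusted p = 5.24e-08). Its 30 Magic-F1 spots ran from 399 to 487 and its 30 control spots from 5633 to 7389.

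**Figure D2:**
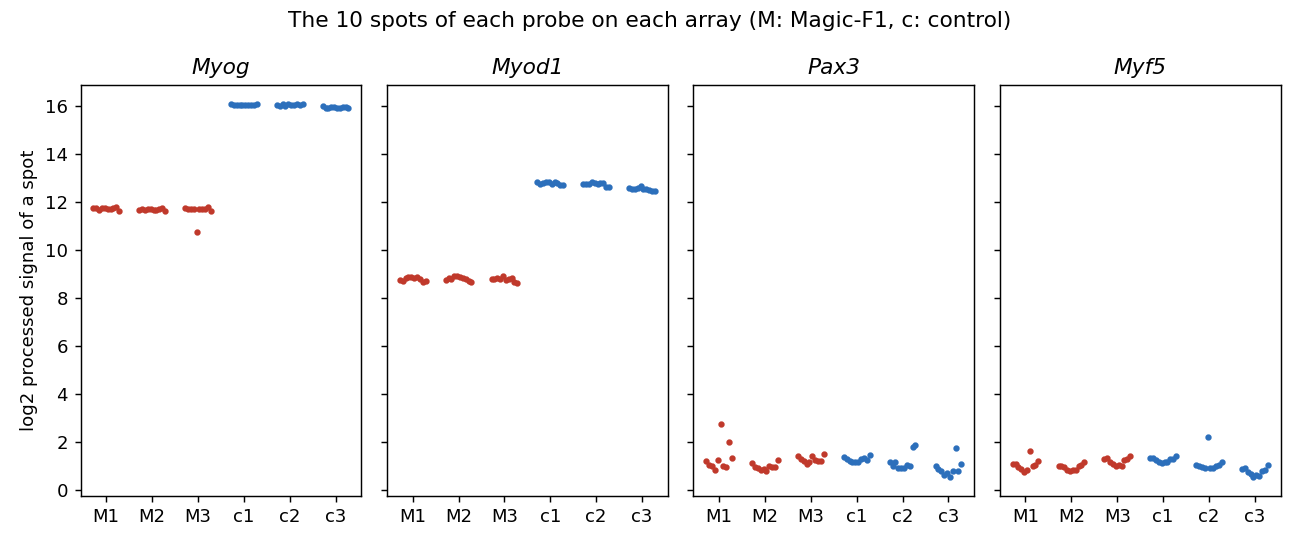
Log2 processed signal (y axis) of every spot of the Myog, Myod1, Myf5 and Pax3 probes that are spotted 10 times per array, by array (x axis; M for Magic-F1, c for control). For Myog and Myod1 all 30 Magic-F1 spots lie below all 30 control spots, whereas for Myf5 and Pax3 the spots of both groups share one low range.

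Myf6 encodes MRF4, the late member of the family. Its probe lies on chromosome 10 at 106930237 to 106930296 (mm9, minus strand). The processed signal was 100, 101 and 93.8 in the Magic-F1 replicates, and 352, 359 and 319 in the control replicates. All 6 arrays were well above background and the groups were clearly apart. The normalized log2 level was -1.82 ± 0.04 in the Magic-F1 samples and 0.28 ± 0.07 in the controls (SD, n = 3 each), so that Myf6 fell by 2.11 on the log2 scale with a standard error of 0.06 (limma, adjusted p = 2.89e-07), or 4.31-fold. With another background correction (normexp, which models the spot background, with an offset of 50 added to every signal) the fold was 3.10. Such an offset makes the fold of a dim probe smaller.

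Myf5, the early commitment factor, lies beside Myf6, and the probes of the pair are 10203 bases apart. Its probe is at 106919974 to 106920033 on chromosome 10 (mm9, minus strand). The processed signal was 2.09, 1.92 and 2.29 in the Magic-F1 replicates, and 2.37, 2.26 and 1.70 in the control replicates. The groups overlapped, and none of the 30 Magic-F1 and 30 control spots was well above background. The difference of -0.25 on the normalized log2 scale is thus a difference between background readings, and no fold is given.

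**Figure D3:**
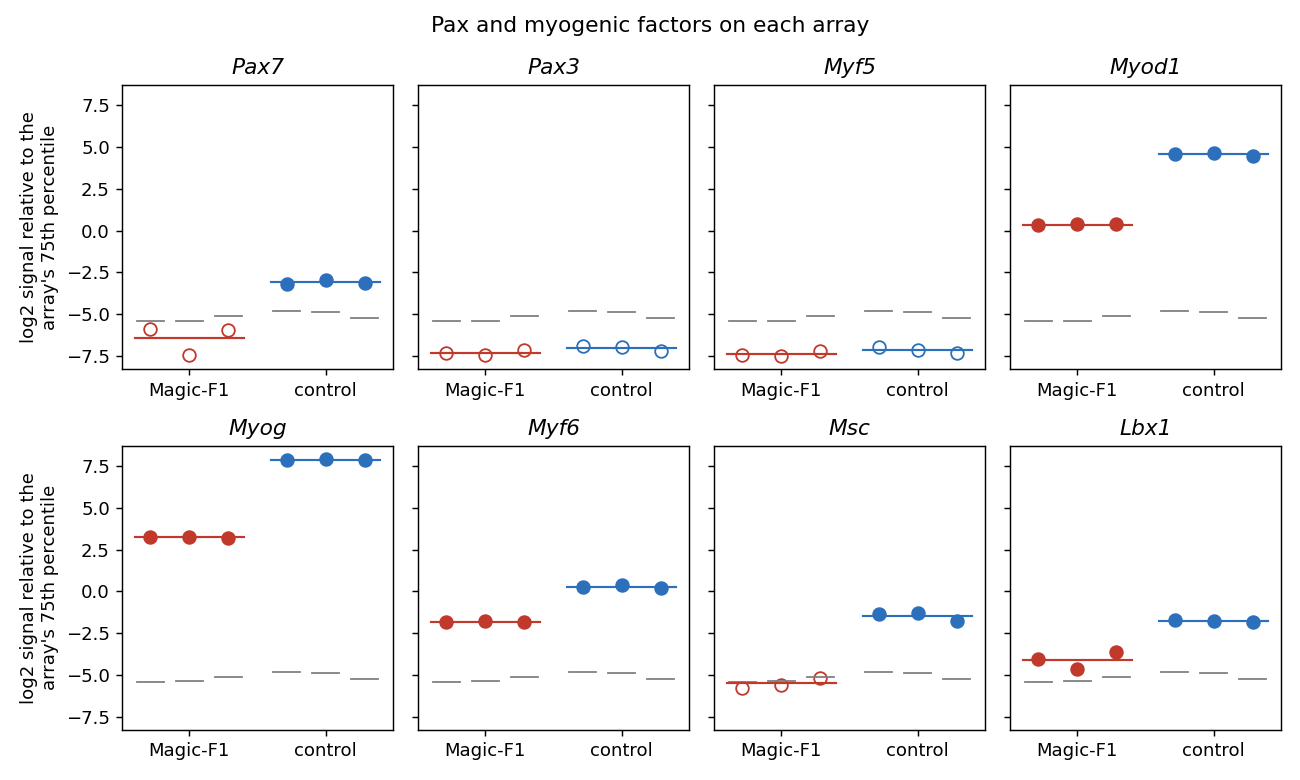
Normalized log2 level (y axis) of each gene on each of the 6 arrays (x axis, by group; the first of the Pax3 probes), with filled points where the probe was well above background and open points where it was not. Coloured lines mark group means, and short grey lines the lowest signal that counted as well above background on the array. Magic-F1 points lie below control points for Myog, Myod1, Myf6, Lbx1, Msc and Pax7, while those of Myf5 and Pax3 overlap.

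Pax7, the defining factor of satellite cells, was dim on these arrays. Its probe lies on chromosome 4 at 139294364 to 139294423 (mm9, minus strand). The processed signal was 6.13, 1.99 and 5.47 in the Magic-F1 replicates, none of them well above background. In the control replicates it was 32.5, 35.8 and 30.9, all of them well above background. The control samples were close together and every one was above the Magic-F1 samples, of which replicate 2 was the lowest. Because the Magic-F1 group gives only a bound, Pax7 is stated as at least 4.63-fold lower; such a bound sets the bright group against the higher of the probe's own signal and the lowest signal that counted as well above background on each array. The measured means were -6.42 ± 0.89 for Magic-F1 and -3.10 ± 0.11 for control on the normalized log2 scale (SD, n = 3 each), a difference of -3.33 with a standard error of 0.43 (limma, adjusted p = 0.000398). It was -2.75 among the arrays of slide 1 and -4.48 on slide 2, which held replicate 2 of each group. With normexp it was -0.77, or 1.70-fold lower, which still passed the test (limma, adjusted p = 1.09e-06). Such a bound thus holds for the processed signal only, and the fold with normexp can lie under it.

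Pax3 was measured by 2 probes on chromosome 1, at 78099476 to 78099535 and at 78180183 to 78180242 (mm9, minus strand). The processed signal of the first was 2.78, 1.97 and 2.42 in the Magic-F1 replicates, and 2.41, 2.31 and 1.92 in the control replicates. The second gave 1.97, 1.87 and 2.17, and 2.30, 1.92 and 1.59, in the same order. Neither probe was well above background on any of the 6 arrays and the groups overlapped for both. The differences of -0.27 and -0.24 are between background readings, and Pax3 was not detectable in either group.

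Of the other Pax genes, named for the same paired box, 7 are on the list and Pax2 alone was tested. Pax2 was 1.31-fold lower in Magic-F1 cells, at -0.38 with a standard error of 0.06 (limma, adjusted p = 0.00135). This call did not hold when arrays were scaled on the spiked-in transcripts, where the difference was 0.07 (adjusted p = 0.444).

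Msc encodes musculin, a bHLH repressor that competes with MyoD for E-boxes and E proteins. Its probe lies on chromosome 1 at 14744315 to 14744374 (mm9, minus strand). The processed signal was 6.60, 7.09 and 9.53 in the Magic-F1 replicates, and 113, 112 and 80.2 in the control replicates. No Magic-F1 array and all 3 control arrays were well above background for Msc, and the groups did not overlap. Msc was at least 14.1-fold lower in Magic-F1 cells. The measured means were -5.51 ± 0.31 and -1.49 ± 0.25 on the normalized log2 scale (SD, n = 3 each), a difference of -4.02 with a standard error of 0.19 (limma, adjusted p = 3.28e-06). With normexp the difference was -1.48, or 2.78-fold, which lies under the bound of 14.1-fold.

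Lbx1, the homeobox factor of limb muscle precursors, was low but detected on all 6 arrays. Its probe lies on chromosome 19 at 45307928 to 45307987 (mm9, minus strand). The processed signal was 21.5, 13.6 and 27.4 in the Magic-F1 replicates, and 88.1, 81.6 and 78.0 in the control replicates. The Magic-F1 samples were more scattered than the control samples, with replicate 2 the lowest, and all lay below the control samples. Lbx1 was 5.09-fold lower, a log2 difference of -2.35 with a standard error of 0.25 (limma, adjusted p = 0.000159). With normexp it was 2.17-fold lower (limma, adjusted p = 9.36e-08). The size of its fall thus depends on this correction and its offset more than that of Myog or Myod1.

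**Figure D4:**
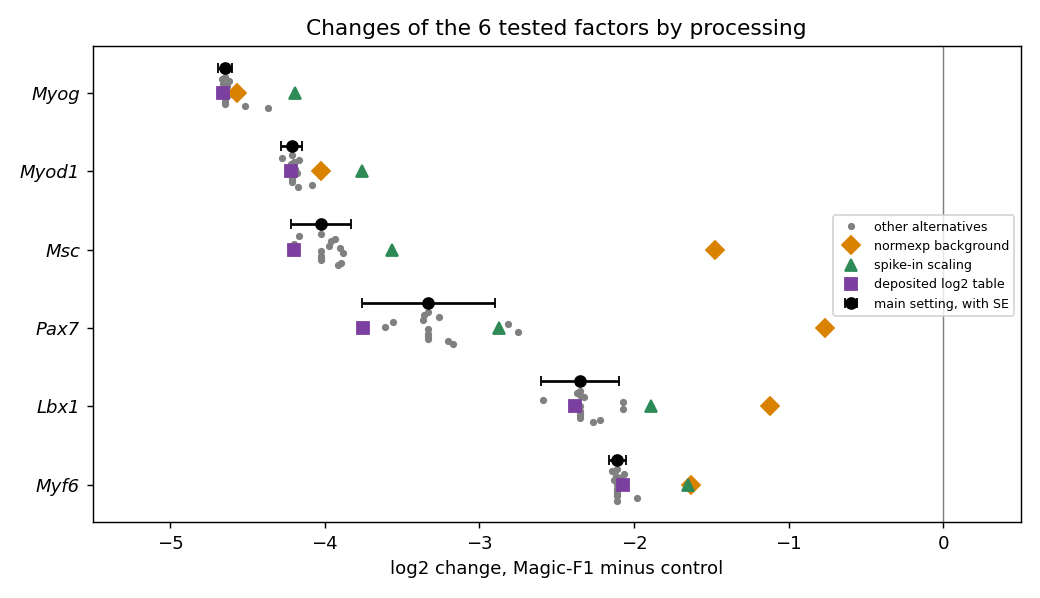
Log2 change, Magic-F1 minus control (x axis), of the 6 tested genes under each of the processing alternatives (points and coloured symbols), with the reported value and its standard error in black. Every value lies below 0; Myog stays between -4.66 and -4.19, whereas Pax7 runs from -3.75 to -0.77.

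For the 4 genes detected on all 6 arrays, Myog, Myod1, Myf6 and Lbx1, the size of the fall was compared in 6 pairs through the difference of their log2 levels within each array. The fall of Myog exceeded that of Myod1 by 0.43 on the log2 scale, a difference that ran from 0.20 with quantile normalization to 0.54 with normexp. The fall of Myog exceeded that of Myf6 by 2.54 and that of Lbx1 by 2.30. The fall of Myod1 exceeded that of Myf6 by 2.11 and that of Lbx1 by 1.86. In each of these 5 pairs the groups did not overlap (exact permutation test, p = 0.1, the smallest that 3 against 3 arrays allow; 0.12 adjusted over the 6 pairs). Lbx1 and Myf6 differed by 0.24 in their fall and the groups overlapped (exact permutation p = 0.7); with normexp the order turned, and Myf6 fell by 0.52 more than Lbx1. With normexp the fall of Myog exceeded that of Lbx1 by 3.45, and that of Myod1 exceeded it by 2.90. No pair can pass 0.05 in this design. A difference between probes shows unequal change and depends on how each probe responds to its RNA.

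Sequence upstream of the gene start was available from RefSeq (GRCm38.p6) for Myog, Pax7 and Myf5. The 250 bases before the start are shown for Myog, which had the largest fall among the genes detected on all 6 arrays, and for Pax7, the marker of the cells, because the myogenic factors bind E-boxes. The E-box, CANNTG, reads the same way on both strands and is in capitals. The Myog stretch is at chr1:134289754-134290003, plus strand, and the Pax7 stretch at chr4:139832969-139833218, minus strand.
Myog: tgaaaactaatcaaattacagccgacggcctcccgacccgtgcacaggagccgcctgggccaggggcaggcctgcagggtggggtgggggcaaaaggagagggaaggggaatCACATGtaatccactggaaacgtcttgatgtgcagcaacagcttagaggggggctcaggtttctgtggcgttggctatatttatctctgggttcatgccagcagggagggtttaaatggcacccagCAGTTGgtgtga
Pax7: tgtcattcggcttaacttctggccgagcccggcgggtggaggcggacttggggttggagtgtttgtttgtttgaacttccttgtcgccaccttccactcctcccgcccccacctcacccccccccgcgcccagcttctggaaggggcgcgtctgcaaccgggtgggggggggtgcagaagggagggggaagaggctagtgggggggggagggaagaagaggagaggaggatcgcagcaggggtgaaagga
Myog holds 2 E-boxes, CACATG beginning 138 bases and CAGTTG beginning 12 bases before the start. At least 1 is found in 66.2% of 32851 promoters of this length and at least 2 in 31.8%. No E-box is in the Pax7 or the Myf5 window. The E-box form CAGCTG, found in 13.0% of promoters, is in none of the 3 windows. The homeobox core ATTA, searched on both strands, occurs 3 times in Myog and 3 times in Myf5 and not in Pax7; at least 1 is found in 54.9% of promoters and at least 3 in 17.3%. These are matches of letters and were not tested as sites.

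The genes around these factors were described by lists, each read against all 14908 tested gene names, of which 47.7% were lower and 40.6% higher, with a median log2 change of -0.15. Because so many genes changed, a share is set beside these values and no list is called particular from it. Scaling on the spiked-in transcripts moved the median of all tested probes by 0.46 upward, and the split of called probes from 47.1% higher and 52.9% lower to 60.7% and 39.3%.

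Of the upstream regulators of the factors, such as the Eya, Pitx and Meox families, 16 of 19 were tested, of which 12 were lower and 4 higher, with a median of -1.62. With normexp the median was -0.75, and with spike-in scaling 9 were lower and 4 higher. Over the 13 detected on all 6 arrays 9 were lower and 4 higher, with a median of -0.61. Pitx3, a homeobox factor of muscle and lens, was at -3.14 ± 0.05 for Magic-F1 and 1.34 ± 0.11 for control on the normalized log2 scale (SD, n = 3 each), 22.3-fold lower (limma, adjusted p = 4.85e-08), with a log2 change of -3.24 with normexp. Eya2, a transcriptional coactivator, was 21.8-fold lower, with 2 of 3 Magic-F1 arrays well above background and a log2 change of -2.13 with normexp. Meox2 and Meox1, homeobox factors of the somite and limb muscle, were 8.44-fold and 7.60-fold lower, and the log2 change of Meox1 was -2.02 with normexp. Mef2c, a partner and target of the myogenic factors, was 1.30-fold higher (limma, adjusted p = 0.0121), a call that slide 1 alone did not give (adjusted p = 0.0542). Mef2a, also counted as higher, was at 0.39 on the log2 scale by its brightest probe and at -0.68 by its other tested probe.

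All 3 E proteins, the partners of the myogenic factors on DNA, were tested; 1 was higher and 2 were not called. Tcf4 rose 3.05-fold (limma, adjusted p = 1.23e-06), and it also stands on the list of fibroblast markers. Tcf3, which encodes E12 and E47, changed by -0.01 (adjusted p = 0.860), and Tcf12, which encodes HEB, by -0.02 (adjusted p = 0.852). With spike-in scaling both were 0.44 higher and passed the test (adjusted p = 0.000277 and 0.00891). The other tested probes of Tcf12 disagreed, at -1.03 and 1.05.

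Of the inhibitors of bHLH factors, 16 of 18 were tested, of which 9 were lower, 5 higher and 2 not called, with a median of -0.51; with spike-in scaling 6 were lower and 6 higher. Among the Id genes, whose products tie up E proteins, the members moved apart. Id3 was 4.65-fold lower and Id4 6.11-fold lower, whereas Id2 was 1.73 higher on the log2 scale. Id1 had no tested probe. Heyl, a Notch target and repressor expressed in satellite cells, was 9.45-fold lower, at a log2 change of -3.24 that was -2.32 with normexp. Bhlhe41, a repressor of MyoD activity, was 4.08-fold higher.

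Of the cofactors of MyoD and myogenin, 15 of 16 were tested, of which 7 were higher, 7 lower and 1 not called, with a median of 0.12; over the 14 detected on all 6 arrays the median was -0.14. Smarcd3, the chromatin remodelling subunit BAF60C that works with MyoD, was 8.66-fold lower (limma, adjusted p = 3.32e-08). Ezh2, the methyltransferase that holds muscle genes silent, was 5.61-fold lower, at a log2 change of -2.49 that was -1.84 with normexp. Hdac1, a deacetylase that binds MyoD, was 3.20-fold lower. Ep300, an acetyltransferase and coactivator, was 5.03-fold higher, with 2 of 3 control arrays well above background and a log2 change of 0.49 with normexp.

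Of the partners of Pax3 and Pax7, 8 of 9 were tested. Of these 4 were lower, 2 higher and 2 not called, with a median of -0.20. Over the 7 detected on all 6 arrays 4 were lower and 1 higher, with a median of -0.38. With spike-in scaling 2 were lower and 4 higher and the median was 0.25. With the mean of all tested probes of each gene the median was -0.55. Ash2l and Rbbp5 are subunits of the histone methyltransferase complex that Pax7 recruits. Ash2l was 2.43-fold lower and Rbbp5 1.45-fold higher. Kmt2d, named Mll2 in the files, a catalytic subunit of such complexes, was not well above background in control cells. It was at least 1.39-fold higher (limma, adjusted p = 0.0101). Kmt2d entered the tests only through the Magic-F1 samples, so that a rise was the direction this selection allowed. With normexp its log2 change was -0.03, so its direction depends on the background correction, offset included. Nedd4, a ubiquitin ligase of Pax7, was 1.65-fold lower by its brightest probe, a log2 change of -0.73, while its other tested probe gave -0.30. The brightest probe was chosen anew under each setting, and the value with normexp, -0.25, need not be of the same probe.

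Of the targets of Pax3 and Pax7, 9 of 10 were tested, of which 7 were lower and 1 higher, with a median of -2.35. The list holds Myod1 and Lbx1, and Lbx1 itself gives that median; without these, 5 of 7 were lower and 1 higher, with a median of -2.22. Fgfr4, a fibroblast growth factor receptor of myoblasts, was 46.9-fold lower, at -2.05 ± 0.06 for Magic-F1 and 3.50 ± 0.13 for control (normalized log2, SD, n = 3 each; limma, adjusted p = 3.69e-08), and its other tested probes gave -4.71 and -3.01. The log2 change of Fgfr4 was -5.55, and -4.76 with normexp. Met, the receptor on which Magic-F1 acts and a Pax3 target in limb precursors, was 6.25-fold lower by its brighter probe, a log2 change of -2.64 that was -1.69 with normexp, and was at -1.45 by the other. Itm2a, a membrane protein gene bound by Pax3, was 6.11-fold lower. Cxcr4, the chemokine receptor of migrating precursors, was 25.2-fold higher, at 4.66 on the log2 scale and 4.03 with normexp. Cxcr4 is also expressed by blood cells, whose markers are given below.

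Of the targets of MyoD and myogenin, 31 of 32 were tested, of which 29 were lower and 2 higher, with a median of -2.77; Myog itself is one of them, and without it 28 of 30 were lower, with a median of -2.71. Actc1, the cardiac actin of early myotubes, was 103-fold lower (limma, adjusted p = 2.03e-08). Ckm, muscle creatine kinase, was 53.7-fold lower, at a log2 change of -5.75 that was -4.97 with normexp. Cdh15, the satellite cell adhesion protein M-cadherin, was 28.5-fold lower, and Cav3, muscle caveolin, 27.1-fold lower. Chrna1, a subunit of the acetylcholine receptor, fell by 2.50 on the log2 scale. Cdkn1a, the cell cycle inhibitor that MyoD induces, fell by 0.63, but with spike-in scaling by 0.17 (adjusted p = 0.0557). The 2 higher targets were Mef2c and Mef2d. Mef2d was 1.19 higher by its brightest probe, and its other tested probes gave -0.68 and 0.06.

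**Figure D5:**
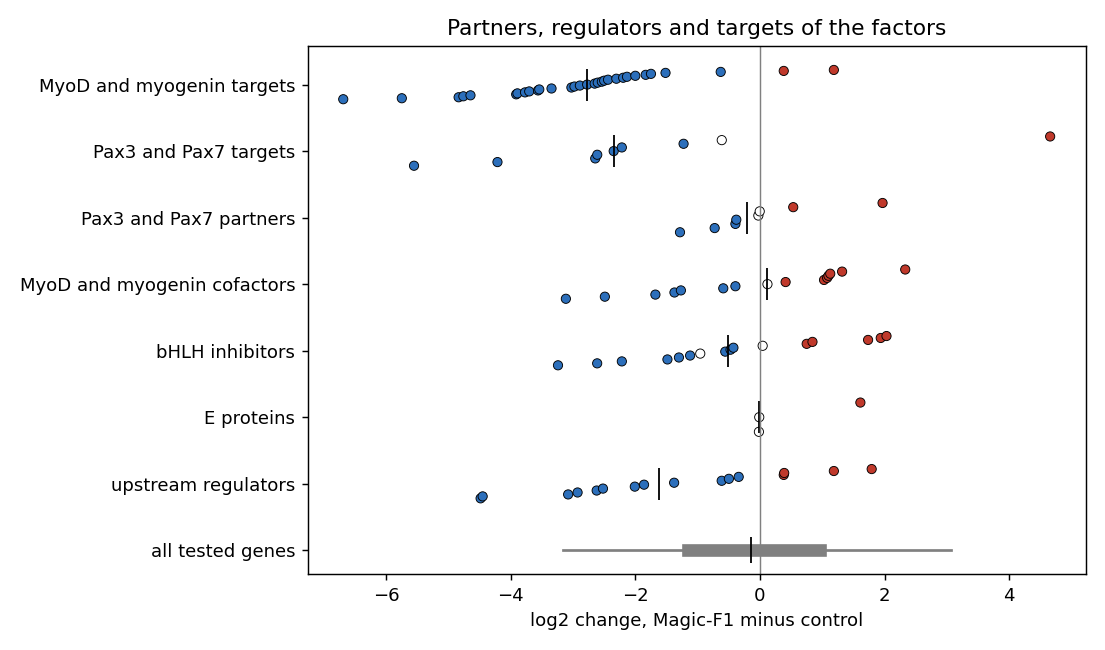
Log2 change, Magic-F1 minus control (x axis), of each tested gene on 7 lists (rows; blue lower, red higher, white not called, with a tick at the median), with the distribution of all tested genes in the bottom row (bar from the 25th to the 75th percentile, line from the 5th to the 95th). The targets of MyoD and myogenin lie mostly below 0, at a median of -2.77, while E proteins and cofactors lie on both sides of 0.

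Markers of muscle cells and of other cells changed too, in differing directions. Of 15 markers of muscle stem cells and myoblasts, 13 were tested, of which 10 were lower, 2 higher and 1 not called. Their summed normalized level was taken on a linear scale on which 1 is the 75th percentile of an array. It was 40.9 to 43.3 in Magic-F1 samples, where Des was the largest part, against 228 to 254 in control samples. All 14 macrophage markers were tested; 12 were higher, with a median log2 change of 4.58 and a summed level of 1381 to 1447 against 465 to 490. Lyz2, the largest part of that sum in Magic-F1 samples, was 1.23-fold lower, and Marco was 11.3-fold lower. With quantile normalization and with spike-in scaling 13 were higher and 1 was lower, so the direction of 1 of these 2 depends on scaling. Of the 14, 13 were well above background in all control samples too, while Mrc1 was well above background in no control sample. Mrc1 thus passed only through the Magic-F1 samples, where a rise was the direction this selection allowed. Over the 13 detected on all 6 arrays 11 were higher and 2 lower. Adipocyte markers were higher in 8 of 8, at 725 to 764 against 146 to 149. Of these, 7 were detected on all 6 arrays. Retn passed only through the Magic-F1 samples, so that a rise was the direction this selection allowed. Neutrophil markers were lower in 8 of 9 tested of 11, at 1.81 to 1.89 against 583 to 628. Endothelial markers were lower in 6 of 7 tested of 8, at 0.209 to 0.248 against 8.03 to 8.40. Of 4 neutrophil markers detected on all 6 arrays 3 were lower and 1 higher, and of 2 such endothelial markers 1 was lower and 1 higher. The other tested markers of these lists passed only through the control samples, so that a fall was the direction this selection allowed. Of 10 fibroblast markers 5 were higher and 5 lower, at 917 to 939 against 1134 to 1166. This split depends on scaling. With quantile normalization 7 were higher and 3 lower, and with spike-in scaling 6 were higher and 2 lower. B cell markers were lower in 5 of 6 tested of 8, at 0.806 to 0.848 against 1.57 to 1.77, and only 2, both lower, were detected on all 6 arrays. Pax3 and Pax7 are also expressed in neural crest derivatives. Of 8 melanocyte and neural crest markers 6 were tested, 4 higher and 2 lower, at 7.36 to 7.79 against 3.11 to 3.22. Mitf was 12.5-fold and Ednrb 8.04-fold higher, whereas Sox10 was 4.71-fold lower and Dct at least 4.79-fold lower, with Tyr and Tyrp1, which define pigment cells, not tested. Of 8 Schwann cell markers 7 were tested, 2 higher and 5 lower, at 129 to 133 against 73.0 to 80.2. Their median log2 change was -2.01, although the sum was higher, and Pmp22 was the largest part of the sum in Magic-F1 samples. The part of these cells in the levels of Pax7, Myod1, Myog and the others was not tested.

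The genes whose profile came nearest to 3 of the factors were sought among 12980 tested genes, by the root mean square difference of normalized log2 levels over the 6 arrays after removal of each gene's mean. Nearest to Myog were Dhh, which encodes a hedgehog ligand (0.0654), Pwwp3b (0.0697) and Dlk1, an imprinted membrane protein gene of muscle and fat precursors (0.0706). Nearest to Myod1 were Lbp, which encodes a binding protein for bacterial lipopolysaccharide (0.0445), Rad51ap1, of recombination repair (0.0606), and Baalc (0.0629). Nearest to Pax7 were Lingo3 (0.225), Tacc3, of the mitotic spindle (0.292), and Agxt, a peroxisomal aminotransferase gene (0.293). The distances for Pax7, whose Magic-F1 readings were scattered, were larger. The mean Magic-F1 levels of Lingo3, Tacc3, Agxt and Pwwp3b were -5.85, -6.93, -5.70 and -5.97. The lowest signal that counted as well above background was at -5.41 or higher on each Magic-F1 array, so these profiles rest partly on background readings. With 2 groups of 3 arrays, such a profile is mostly the size of the difference between the groups.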

How the data were processed

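RNA of 3 Magic-F1 and 3 control samples was hybridised to 6 single-colour Agilent arrays. Per the file headers, Feature Extraction 10.5.1.1 gave background-subtracted spot intensity with no scaling across arrays. The authors also deposited a table of log2 values, used as an alternative. It equals the log2 processed signal for 4 arrays and holds other values for both arrays numbered 1; the sources used here do not say how these were made.

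Control spots were left out and spots with outlier marks (59 to 89 per array) set to missing. Log2 processed signal was reduced by each array's 75th percentile and replicate spots of each probe were averaged. A probe entered the tests if every array of 1 group or both showed it well above background. Groups, taken from the labels, were compared with limma 3.58.1 (lmFit, eBayes; R 4.3.3) modelling group alone, 2-sided, Benjamini-Hochberg over 21190 probes at 0.05. The procedure was tested on simulated data. Of the probes, 25097 were named by RefSeq accession and 16077 kept the file's name. A gene on a list was represented by its brightest tested probe, chosen anew under each alternative. Positions are those of the files; exon and UTR annotation was not used here.

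Members and lists were chosen with earlier results of these data known. The named genes are the 8 factors, up to 4 called genes of each list with the largest change and groups that did not overlap, a fixed set (Tcf3, Tcf12, Id1, Id2, Id3, Met, Fgfr4, Mef2c, Cdkn1a, Chrna1, Ckm), and the 3 nearest profiles of Pax7, Myf5, Myod1 and Myog where called. Mef2a and Mef2d were named after their values were seen. Alternatives covered background, scaling, filters, blocks, the deposited table, variance model and leaving out each sample.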

Additional observations from a re-analysis of the deposited data

How the results depend on the processing

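Myog, Myod1, Myf6 and Lbx1 were lower and past the threshold under each of the 17 alternatives. So were Pax7 and Msc where they were tested, also without a filter; where only probes well above background on all 6 arrays were kept, they could not be tested and 4 factors were called. Across these, Myod1 ran from -4.27 to -3.76, Myf6 from -2.14 to -1.63, Msc from -4.19 to -1.48 and Lbx1 from -2.59 to -1.12 on the log2 scale. The differences between background readings moved: for Pax3 to -0.015 with quantile normalization and 0.18 with spike-in scaling, and for Myf5 to 0.0086 and 0.21. With spike-in scaling 3 E proteins were called in place of 1, and 0 of the other Pax genes in place of 1 (limma; 0 at an unadjusted p under 0.05). Without a filter 2 of these, Pax2 and Pax9, were called; the cause was not tested. Leaving out each sample in turn gave Pax7 from -3.61 to -2.82 and 18038 to 18690 called probes, against 18590. Same-numbered samples did not deviate together in every pair (r of -0.003, 0.108 and 0.069), so the numbers were not taken to pair them, although replicate 2 of both groups shared slide 2. With a replicate block 18543 probes were called, and with slide as a block 18617, and the 6 factors stayed lower under both. Readings of Pax7, Msc and Lbx1 near background limit how well the size of their falls is known.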

Other observations

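The genes next to these factors on the chromosome did not share 1 direction. Neighbours were taken from the order of genes in RefSeq (GRCm38.p6), clones and predicted loci left out, and were chosen for description with the results of the factors known. Of 14 neighbours that are not themselves in the set 9 were tested. Of these 5 were lower, 3 higher and 1 not called, where 47.7% of all tested gene names were lower and 40.6% higher. Lin7a and Kcnc1 entered the tests only through the control samples, so that a fall was the direction this selection allowed. Klhdc7a entered only through the Magic-F1 samples, where a rise was that direction. Among the neighbours detected on every array, Otog, Ppfia4 and Btrc were lower, Adora1 and Eya1 higher, and Epha4 was not called. Lin7a, a scaffold gene beside Myf5, was above background in no Magic-F1 sample and was at least 13.0-fold lower (limma, adjusted p = 7.99e-07; log2 change -1.35 with normexp), while the Myf5 probe itself gave no signal above background. Beside Myod1, Otog was 5.04-fold lower. Kcnc1, a potassium channel gene on the other side of Myod1, was above background in no Magic-F1 sample and was at least 2.30-fold lower (log2 change -0.53 with normexp). Beside Myog, Ppfia4 was 2.33-fold lower but Adora1, an adenosine receptor gene, 3.81-fold higher. Klhdc7a, beside Pax7, was above background in no control sample and was at least 3.15-fold higher (log2 change 0.24 with normexp). Eya1, a transcriptional coactivator gene that lies beside Msc, was 3.46-fold higher. Btrc, beside Lbx1, was 1.13-fold lower. Epha4, beside Pax3, changed by 0.11 on the log2 scale (adjusted p = 0.40).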
